A study of Mus musculus with 8 samples.

Results

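The mitochondrial genome of the mouse encodes subunits of the respiratory chain, and 6 of its genes make proteins of complexes III, IV and V: mt-Cytb, mt-Co1, mt-Co2, mt-Co3, mt-Atp6 and mt-Atp8. These 6 genes were taken by name from the deposited expression table, in which each Ensembl identifier was paired with its mouse symbol, and they are 6 of the 25929 genes listed. All 6 passed the filter on low values, at least 1 FPKM (fragments per kilobase of transcript, scaled to the mapped fragments of the library) in at least 2 libraries, as did 14442 genes in all. Levels were measured by RNA-sequencing of hearts in 8 libraries, 2 for each of 4 groups. WT mice (strain C57BL/6, no transgene) underwent a sham operation (WT-Sham) or transverse aortic constriction (WT-TAC), and mice with the fat-1 transgene (strain Fat-1) underwent the same operations (Fat1-Sham and Fat1-TAC). Fat-1 encodes a desaturase of Caenorhabditis elegans that converts n-6 into n-3 polyunsaturated fatty acids, TAC narrows the aorta so that the left ventricle pumps against a raised pressure, and the sham operation leaves the aorta open. The mice were littermates aged 3 months at surgery. The labels name ventricular tissue, whereas the study's methods describe RNA from whole hearts. The promoter of the transgene is not given in the sources used here. The labels do not say whether the 2 libraries of a group came from separate animals, so p-values measure the spread between these libraries only.

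In oxidative phosphorylation, electrons pass from complex III, the cytochrome bc1 complex, through cytochrome c to complex IV, cytochrome c oxidase, which reduces oxygen to water. Both complexes pump protons across the inner mitochondrial membrane, and complex V, the ATP synthase, lets the protons return and makes ATP. Each complex joins 1 or a few subunits made inside the mitochondrion with many made from nuclear genes. Cardiomyocytes, which contract without pause, are rich in all of these complexes. The mitochondrial strands are transcribed as long precursors that are cut mostly at the tRNAs between the genes. Most of the mRNAs hold a single gene, but mt-Atp8 and mt-Atp6 are carried together on 1 mRNA.

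On the GRCm38 assembly, all 6 genes lie on the same strand of the mitochondrial chromosome. The complex IV genes mt-Co1 (ENSMUSG00000064351) at chrM:5328-6872 and mt-Co2 (ENSMUSG00000064354) at chrM:7013-7696 come first. The complex V genes mt-Atp8 (ENSMUSG00000064356) at chrM:7766-7969 and mt-Atp6 (ENSMUSG00000064357) at chrM:7927-8607 follow, and then mt-Co3 (ENSMUSG00000064358) at chrM:8607-9390. The complex III gene mt-Cytb (ENSMUSG00000064370) stands apart from these, at chrM:14145-15288. Each is annotated as 1 exon without an intron. mt-Atp8 and mt-Atp6 share 43 bases, 21.1% of the length of mt-Atp8, which are shown because a fragment from them matches both genes. The capitals mark the start codon of mt-Atp6 and the stop codon of mt-Atp8.
Shared bases of mt-Atp8 and mt-Atp6, chrM:7927-7969 (+): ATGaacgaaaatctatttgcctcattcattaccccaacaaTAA

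The annotated mt-Co3 and mt-Cytb genes are 784 and 1144 bases long, and each ends in a single T that belongs to no whole codon. In mammalian mitochondria such an end becomes a stop codon when the poly(A) tail is added. The last 30 bases of both are shown because they mark where the coding sequence of these mRNAs ends, with that final base in capitals.
mt-Co3, chrM:9361-9390 (+): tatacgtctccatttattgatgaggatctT
mt-Cytb, chrM:15259-15288 (+): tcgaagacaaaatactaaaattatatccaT

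Nuclear chromosomes hold copies of mitochondrial DNA, and a fragment from an identical stretch can be counted for the mitochondrial gene or for the copy. The 6 genes were compared with 141730 transcripts of nuclear genes, and a copy was counted from 95% identity over at least 100 bases. For 3 genes a pseudogene on chromosome 1 carried nearly the whole gene without a mismatch. Gm28661 (chr1:24614885-24615565) matched 681 of the 684 bases of mt-Co2. Gm28437 (chr1:24613189-24613971) matched 783 of the 784 bases of mt-Co3, and Gm10925 (chr1:24613974-24614651) matched 678 of the 681 bases of mt-Atp6. The first 60 bases of mt-Co2 and of Gm28661 are shown as an example, with the start codon in capitals.
mt-Co2, chrM:7013-7072 (+): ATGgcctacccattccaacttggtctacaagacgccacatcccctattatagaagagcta
Gm28661, chr1:24615506-24615565 (-): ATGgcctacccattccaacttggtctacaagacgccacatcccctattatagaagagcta

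For mt-Co1, the pseudogene Gm13340 (chr2:22588103-22589647) spans all 1545 bases with 37 mismatches, and the longest identical run is 148 bases. A second pseudogene, Gm29216 (chr1:24615706-24616197), matches 483 bases at the end of mt-Co1 with 1 mismatch. Differences between mt-Co1 and Gm13340 are shown for the stretch of 60 bases that holds 4 of them, in capitals: A462G, A468G, T501C and C519T, with positions counted from 1 at the 5′ end of mt-Co1 and its base first.
mt-Co1, chrM:5787-5846 (+): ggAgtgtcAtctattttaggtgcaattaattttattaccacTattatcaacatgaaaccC
Gm13340, chr2:22589129-22589188 (-): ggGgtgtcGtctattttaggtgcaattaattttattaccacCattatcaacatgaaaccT

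Among the annotated transcripts, no copy of mt-Cytb or mt-Atp8 met these limits. The last 43 bases of mt-Atp8, which are also the start of mt-Atp6, lie within Gm10925 without a mismatch but are too short for these limits. Gm28661 and Gm10925 lie on chromosome 1 at the same spacing as mt-Co2 and mt-Atp6. The bases between them, where the rest of mt-Atp8 lies in the mitochondrial genome, were not analysed here. Whether that rest of mt-Atp8 has a copy there is therefore not known. In windows of 100 bases, the share identical to an annotated nuclear transcript was 99.5% for mt-Co2, 99.9% for mt-Co3, 99.5% for mt-Atp6, 30.8% for mt-Co1 and 0% for mt-Cytb and mt-Atp8. How fragments matching both places were assigned is not given in the sources used here. All these pseudogenes were found by the sequence comparison and named for that reason.

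Some libraries stood apart from their partners in ways that the groups do not describe. Over the genes tested, the replicates correlated at r = 0.984 in WT-Sham, 0.985 in Fat1-Sham and 0.981 in Fat1-TAC, but at 0.898 in WT-TAC, where 2560 genes differed more than 2-fold between the libraries against 275 to 362 in the other groups. The 10 cardiomyocyte markers (such as Myh6, Tnnt2 and Myl2) were present in every library, which fits heart tissue. WT-TAC1 had the lowest summed level, 27414 FPKM, followed by WT-TAC2 with 50126 FPKM, and the range of the other 6 was 54825 to 65988 FPKM. The 6 thymocyte markers summed to 1184 FPKM in WT-TAC1, with Cd4 the most abundant at 302 FPKM, and to at most 1.90 FPKM in each other library, where up to 4 of them (Cd3e, Rag1, Dntt and Ptcra in WT-Sham1) were listed at 0.

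The 5 airway secretory markers summed to 1460 FPKM in WT-TAC1 (Scgb1a1 707 FPKM) and 3910 FPKM in WT-TAC2 (Bpifa1 1968 FPKM). The sum was 48.6 FPKM in Fat1-Sham1 and at most 0.996 FPKM in the other 5 libraries, in each of which at least 1 of the 5 was listed at 0. The 4 markers of general epithelium summed to 203 and 45.9 FPKM in the WT-TAC libraries and to at most 4.68 FPKM elsewhere. Ciliated cell markers summed to 6.16 and 11.1 FPKM in WT-TAC and at most 0.651 FPKM elsewhere, and B and plasma cell markers to 83.3 and 41.6 FPKM in WT-TAC, 34.4 FPKM in Fat1-TAC2 and at most 3.88 FPKM in the others. Alveolar markers summed to 91.9 FPKM in WT-TAC1 and 35.9 FPKM in Fat1-Sham1.

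Markers of the atrium ranged from 25.8 FPKM in Fat1-Sham2 to 3801 FPKM in WT-Sham2 and stood at 52.8 and 35.7 FPKM in Fat1-TAC against 2456 FPKM in each WT-TAC library. Adipocyte markers ranged from 5.28 FPKM in Fat1-TAC1 to 647 FPKM in WT-TAC2. The other lists varied less, from 548 to 1023 FPKM for fibroblasts, 239.6 to 371 FPKM for endothelial cells, 135 to 261 FPKM for macrophages, 388 to 949.7 FPKM for fast skeletal muscle and 4197 to 10500.0 FPKM for erythroid cells. Of the 4 fast skeletal muscle markers, 2 passed the filter on low values, Acta1 and Ckm. Myh4 and Myh1 did not pass. They were at 4.47 and 8.39 FPKM in WT-TAC1 and at most 0.0277 and 0.0716 FPKM in any other library. In WT-TAC vs WT-Sham the median log2 fold change of Acta1 and Ckm was -0.63, beside -0.54 for the cardiomyocyte markers. The part of these other tissues in the levels of the mitochondrial genes was not tested. Since whole tissue was measured, fewer cardiomyocytes and less mitochondrial RNA in each of them cannot be told apart.

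FPKM is scaled to the length of a gene and to the size of a library, but for mt-Co2, mt-Co3 and mt-Atp6 the listed level also depends on how fragments were divided with the identical copy. The gene held between 36.5% (mt-Atp6 in Fat1-Sham1) and 85.8% (mt-Co2 in Fat1-TAC1) of the summed FPKM of gene and copy, so orders of level that involve these 3 genes describe the listed values only. The whole-number steps of low values gave each library's depth, between 14163994 fragments in WT-Sham1 and 21218331 in WT-Sham2. All mitochondrial genes together took 27.5% and 22.8% of fragments in sham and 11.7% and 19.3% in TAC hearts of WT mice, and 23.8% and 23.5% in sham and 27.6% and 23.9% in TAC hearts of fat-1 mice. The 6 genes alone took 17.0% and 13.7% in sham and 7.12% and 11.7% in TAC hearts of WT mice, and 14.7% and 14.2% in sham and 16.3% and 14.0% in TAC hearts of fat-1 mice. WT-TAC1 had the smallest share and WT-TAC2 the next smallest. Counting error was small beside these differences, since the widest 95% Wilson interval of the mitochondrial share reached 0.0232 percentage points to either side. Intervals cover counting error only.

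In complex III, mt-Cytb encodes cytochrome b, the subunit that carries both haem b groups and the sites where ubiquinol and ubiquinone bind. Its level was 38571 and 31629 FPKM in sham and 17387 and 26459 in TAC hearts of WT mice, and 33641 and 31616 in sham and 35981 and 35023 in TAC hearts of fat-1 mice. Both WT-TAC libraries lay below the other 6, and their group stood alone at the foot of the order. In the order of group means, Fat1-TAC (35502 ± 677 FPKM, SD, n = 2) stood above WT-Sham (35100.0 ± 4909), Fat1-Sham (32629 ± 1432) and WT-TAC (21923 ± 6415), and only the last step separated groups that did not overlap. mt-Cytb was the second most abundant gene of the table in every library.

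In complex IV, mt-Co1 encodes the catalytic subunit, in which oxygen is reduced at a centre of haem and copper. Its level was 80252 and 63808 FPKM in sham and 32682 and 55424 in TAC hearts of WT mice, and 68424 and 67370.4 in sham and 75012 and 63496 in TAC hearts of fat-1 mice. It was the most abundant gene in every library, and again both WT-TAC libraries were the lowest. Group means were 72030.0 ± 11628 FPKM (WT-Sham), 69254 ± 8143 (Fat1-TAC), 67897 ± 745 (Fat1-Sham) and 44053 ± 16081 (WT-TAC; SD, n = 2), and in their order only WT-TAC stood apart from its neighbour.

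The mt-Co2 product binds cytochrome c and takes up its electrons at a copper site. The mt-Co2 level was 1296 and 1191 FPKM in sham and 371 and 933 in TAC hearts of WT mice, and 2277 and 1512 in sham and 3795 and 1354 in TAC hearts of fat-1 mice. No fat-1 library was as low as any WT library, and Fat1-TAC1 was the highest. From the highest to the lowest, group means were 2575 ± 1726 FPKM (Fat1-TAC), 1895 ± 541 (Fat1-Sham), 1244 ± 73.8 (WT-Sham) and 652 ± 397 (WT-TAC; SD, n = 2). Both fat-1 groups overlapped, whereas the steps from Fat1-Sham to WT-Sham and from WT-Sham to WT-TAC did not.

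The mt-Co3 product is the third core subunit of complex IV and carries no metal. The level of mt-Co3 was 696 and 800.4 FPKM in sham and 481 and 426 in TAC hearts of WT mice, and 1003 and 581 in sham and 2837 and 817 in TAC hearts of fat-1 mice. Fat1-TAC1 was again far above the rest, and the WT-TAC libraries were the lowest. The order of group means was Fat1-TAC (1827 ± 1429 FPKM), Fat1-Sham (792 ± 298), WT-Sham (748 ± 73.8) and WT-TAC (454 ± 38.6; SD, n = 2), with only WT-TAC apart from its neighbour.

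In complex V, mt-Atp6 encodes subunit a, which forms the path of the protons beside the rotating ring. Its level was 729.7 and 528 FPKM in sham and 308 and 419 in TAC hearts of WT mice, and 717 and 474 in sham and 2329 and 660.4 in TAC hearts of fat-1 mice. The pattern was that of mt-Co3, with Fat1-TAC1 highest and both WT-TAC libraries lowest. Fat1-TAC had the highest mean (1495 ± 1180 FPKM), before WT-Sham (629 ± 143), Fat1-Sham (595 ± 172) and WT-TAC (363 ± 79.1; SD, n = 2), and again only WT-TAC did not overlap its neighbour.

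The mt-Atp8 product is a small membrane subunit of the stator of the ATP synthase. Its level was the lowest of the 6, at 22.5 and 15.2 FPKM in sham and 19.0 and 27.8 in TAC hearts of WT mice, and 21.2 and 14.5 in sham and 52.7 and 50.5 in TAC hearts of fat-1 mice. Both Fat1-TAC libraries lay above the other 6, and WT-TAC was not lower than WT-Sham. Although both genes lie on 1 mRNA, the level of mt-Atp6 was 13.1 (Fat1-TAC2) to 44.2 (Fat1-TAC1) times that of mt-Atp8, and the cause was not tested. The mt-Atp8 values rested on 58 to 201 fragments a library. The 95% Poisson interval was 45.7 to 60.6 FPKM in Fat1-TAC1 and 43.5 to 58.3 FPKM in Fat1-TAC2, above that of the next highest library, WT-TAC2, at 22.7 to 33.8 FPKM. The mean of Fat1-TAC (51.6 ± 1.57 FPKM) stood apart, and WT-TAC (23.4 ± 6.22), WT-Sham (18.9 ± 5.13) and Fat1-Sham (17.9 ± 4.73; SD, n = 2) overlapped.

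**Figure D1:**
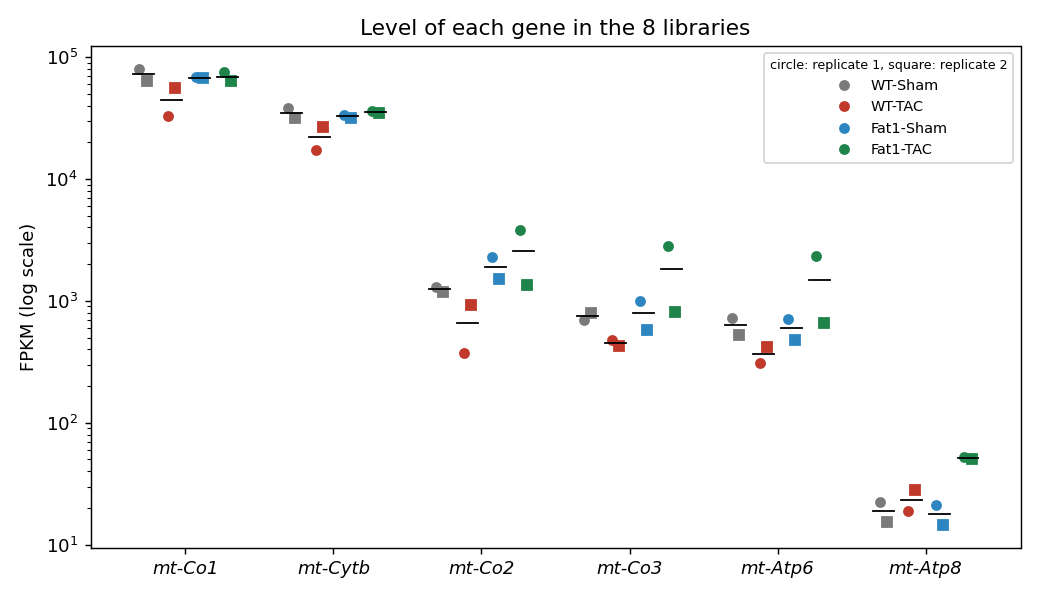
FPKM on a log axis for the 6 genes in each of the 8 libraries, with circles for replicate 1, squares for replicate 2, colours for the groups and a black line at each group mean. mt-Co1 and mt-Cytb stand far above the rest, both WT-TAC libraries are lowest for every gene but mt-Atp8, and Fat1-TAC1 is the highest library for mt-Co2, mt-Co3 and mt-Atp6.

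The levels of the 6 genes spanned more than 3 orders of magnitude. The order mt-Co1, mt-Cytb, then mt-Co2, mt-Co3 and mt-Atp6, and last mt-Atp8 held in most libraries. mt-Co2 lay above mt-Co3 in 7 of 8 libraries and mt-Co3 above mt-Atp6 in 7 of 8, the exceptions being WT-TAC1 for the first and WT-Sham1 for the second. Among all genes of a library, mt-Co2 ranked between 19 and 216, mt-Co3 between 23 and 195, mt-Atp6 between 27 and 265 and mt-Atp8 between 1553 and 6115. From the lowest to the highest library, the level of mt-Co1 differed 2.46-fold and that of mt-Cytb 2.22-fold. The range was 10.2-fold for mt-Co2, 6.65-fold for mt-Co3, 7.57-fold for mt-Atp6 and 3.63-fold for mt-Atp8.

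The most alike in how they varied were mt-Co1 and mt-Cytb. Across the 8 libraries mt-Co1 and mt-Cytb, which are far apart on the genome, correlated at r = 0.981 on the log2 scale, and the ratio of mt-Co1 to mt-Cytb stayed between 1.81 and 2.13. The neighbours mt-Atp6 and mt-Co3 correlated at r = 0.957. mt-Co2 was about as much like every gene but mt-Atp8, with r = 0.873 to mt-Atp6, 0.846 to mt-Co1, 0.829 to mt-Cytb and 0.823 to mt-Co3, and mt-Atp8 was at most at 0.656, with mt-Atp6. The ratio of mt-Co1 to its neighbour mt-Co2 ran from 19.8 in Fat1-TAC1 to 88.0 in WT-TAC1, and mt-Co1 and mt-Atp8 correlated at r = 0.228. The mean r of a gene with the other 5 was 0.763 for mt-Atp6, 0.761 for mt-Co2, 0.684 for mt-Co3, 0.668 for mt-Cytb, 0.647 for mt-Co1 and 0.444 for mt-Atp8. These correlations describe 8 libraries whose values share 1 scaling each.

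**Figure D2:**
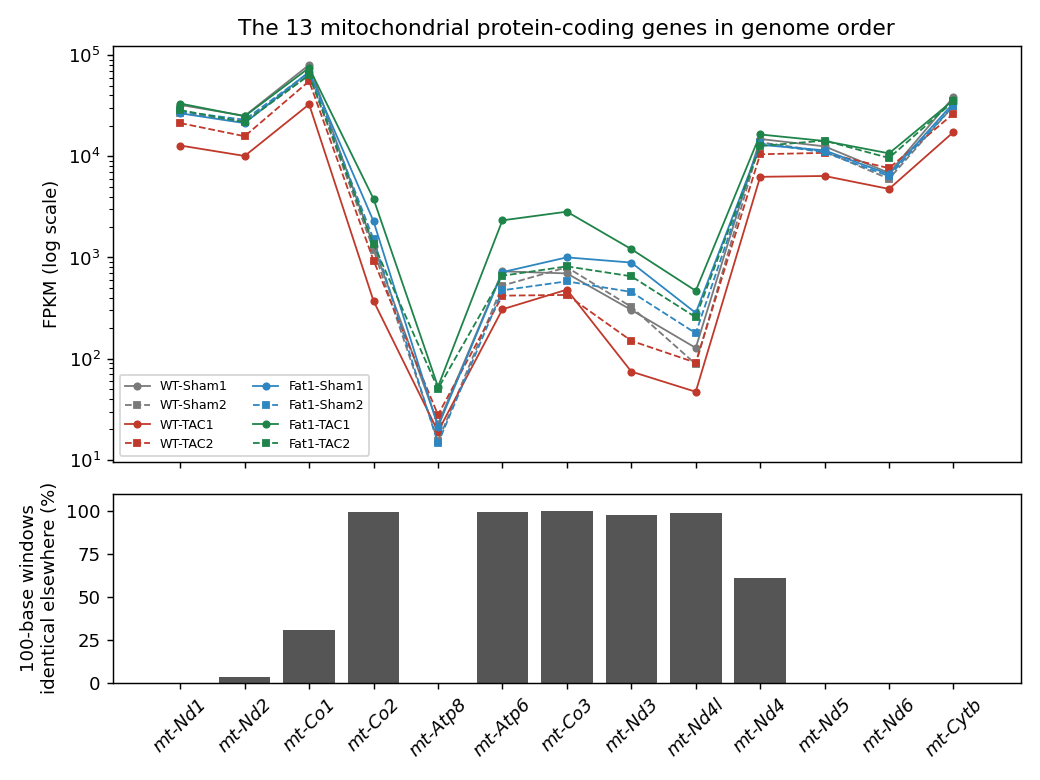
Upper panel, FPKM on a log axis of the mitochondrial protein-coding genes in genome order, with 1 line for each library; lower panel, the percent of 100-base windows of each gene identical to an annotated nuclear transcript. mt-Co2, mt-Atp6, mt-Co3, mt-Nd3 and mt-Nd4l, with shares of at least 97.6, lie below mt-Co1, mt-Cytb, mt-Nd1 and mt-Nd2, while mt-Atp8 is the lowest of the 6, its share of 0 covering annotated transcripts only, and mt-Nd4, with a share of 60.8, lies above mt-Co2, mt-Co3 and mt-Atp6.

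The mitochondrial complex I genes between and around them also spanned a wide range of levels. mt-Nd1, a core membrane subunit with a window share of 0%, was at 32241 and 26788 FPKM in sham and 12793 and 21317 in TAC hearts of WT mice, and 26638 and 27759.5 in sham and 33282 and 28655 in TAC hearts of fat-1 mice. mt-Nd2, another membrane subunit with a share of 3.19%, ranged from 10086 FPKM in WT-TAC1 to 25164 FPKM in WT-Sham1. mt-Nd3 and mt-Nd4l, short subunits whose shares were 97.6% and 98.5%, ranged from 74.5 FPKM in WT-TAC1 to 1210 FPKM in Fat1-TAC1 and from 47.0 FPKM in WT-TAC1 to 468 FPKM in Fat1-TAC1. mt-Nd4, with a share of 60.8%, ranged from 6275 FPKM in WT-TAC1 to 16449.8 FPKM in Fat1-TAC1, and mt-Nd6, the one protein-coding gene on the other strand, with a share of 0%, from 4761 FPKM to 10697 FPKM in the same libraries, both named after their values were seen. mt-Nd1 and mt-Nd2 thus lay near the level of mt-Cytb and mt-Nd3 and mt-Nd4l at those of mt-Co2, mt-Co3 and mt-Atp6 or lower, while mt-Nd4 and mt-Nd6 lay above these 3.

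The chromosome 1 pseudogenes were themselves listed with levels of the same order as their genes. Gm28661, identical to mt-Co2, was at 854 and 912 FPKM in sham and 168 and 439 in TAC hearts of WT mice, and 851 and 767 in sham and 628 and 484 in TAC hearts of fat-1 mice. Gm28437, the copy of mt-Co3, ranged from 172 FPKM in WT-TAC1 to 746 FPKM in WT-Sham1, and Gm10925, the copy of mt-Atp6, from 254 FPKM in WT-TAC1 to 1246 FPKM in Fat1-Sham1. The 3 pseudogenes were lowest in WT-TAC1, as were mt-Co2 and mt-Atp6. Fat1-TAC1 differed from all other libraries in how the level was split, with a ratio of gene to copy of 6.04 for mt-Co2, 5.58 for mt-Co3 and 3.07 for mt-Atp6. The next highest ratio in any library was 2.80 for mt-Co2, 2.80 for mt-Co3 and 1.21 for mt-Atp6.

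**Figure D3:**
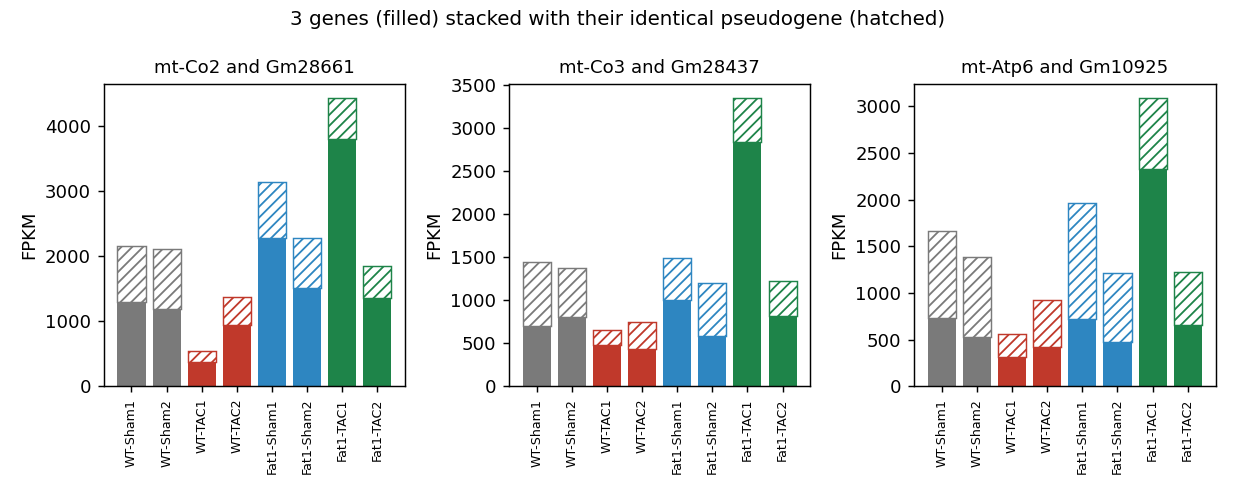
FPKM of mt-Co2, mt-Co3 and mt-Atp6 (filled) stacked with their identical pseudogenes Gm28661, Gm28437 and Gm10925 (hatched) in each of the 8 libraries, coloured by group. The sum is lowest in WT-TAC1 in all 3 panels, and in Fat1-TAC1 the filled part makes up most of the bar.

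A pair of further pseudogenes of mitochondrial complex I genes were followed because earlier results of these data name them. Gm13339 (chr2:22590024-22590533), which matches part of mt-Nd2, was at 62.0 and 40.8 FPKM in sham and 13.3 and 20.9 in TAC hearts of WT mice, and 40.8 and 49.5 in sham and 27.4 and 22.9 in TAC hearts of fat-1 mice. Gm28438 (chr1:24612775-24613119), which matches mt-Nd3, was at 223 and 136 FPKM in sham and 54.2 and 73.9 in TAC hearts of WT mice, and 141 and 134 in sham and 105 and 121 in TAC hearts of fat-1 mice. Both were lowest in WT-TAC, and the Fat1-TAC values of each lay below its Fat1-Sham values.

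The first comparison asked how the genes differed after TAC in WT hearts. In WT-TAC, mt-Co1, mt-Co2, mt-Co3, mt-Cytb and mt-Atp6 were lower than in WT-Sham in both libraries, by 0.70 to 1.08 on the log2(FPKM + 1) scale, and mt-Atp8 was not. None of these differences passed the test. A gene was called where limma gave an adjusted p below 0.1 and the fold change exceeded 1.5, and 0 of the 6 genes were called, against 0.935% of all genes in either direction and 0.0138% called lower. At an unadjusted p below 0.05 with the same fold change, 0 of the 6 passed, against 23.8% of all genes in either direction and 1.11% lower. By that rule 2 were lower with no trend in limma, and 1 was higher after scaling to the cardiomyocyte markers. With a mean of at least 5 FPKM required, only the 2 groups compared or identical copies summed, 1 was lower. The groups did not overlap, with WT-TAC lower, for 5 of the 6 genes and for 7.09% of all genes. The smallest p that an exact two-sided permutation test allows with 2 libraries against 2 is 0.333.

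The largest difference was that of mt-Co2, with a log2 fold change of -1.08 (SE 0.58, limma adjusted p = 0.224). For mt-Atp6 it was -0.79 (SE 0.55), for mt-Co1 -0.75 (SE 0.59), for mt-Co3 -0.72 (SE 0.54) and for mt-Cytb -0.70 (SE 0.46), with limma adjusted p between 0.295 and 0.37. mt-Atp8 had 0.30 (SE 0.28, limma adjusted p = 0.442), a value that turned negative when libraries were scaled by the median of ratios or by quantiles. The median over the 6 genes was -0.73, whereas the median over all genes tested was 0.39, so that the 6 genes stood at -1.12 relative to it. The cardiomyocyte markers were also lowest in WT-TAC1, and after scaling to the 10 cardiomyocyte markers the median of the 6 was -0.18. Without WT-TAC1 the median was -0.41, with 0 genes called. Without WT-TAC2, 3 of the 6 were called lower, in a fit in which 7408 of 14442 genes were called, 6.31% of all genes being called lower.

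Fat1-TAC against Fat1-Sham gave the same contrast in fat-1 hearts. All 6 values were positive, and mt-Atp8 differed the most, with both Fat1-TAC libraries above 50 FPKM and both Fat1-Sham libraries below 22 FPKM. Its log2 fold change was 1.501 (SE 0.28, limma adjusted p = 1). By limma, 0 of the 6 genes were called, against 0.00692% of all genes, and 1 of the 6, mt-Atp8, was higher at an unadjusted p below 0.05, against 1.33% of all genes. The groups did not overlap, with Fat1-TAC higher, for mt-Cytb and mt-Atp8, 2 of the 6, and for 26.8% of all genes. mt-Atp6 had a log2 fold change of 1.09 (SE 0.55), mt-Co3 of 0.995 (SE 0.54), mt-Co2 of 0.29 (SE 0.58), mt-Cytb of 0.12 (SE 0.46) and mt-Co1 of 0.02 (SE 0.59), each with a limma adjusted p of 1. Without Fat1-TAC1, mt-Atp6 had 0.18 and mt-Co3 0.10, and without Fat1-TAC2 they had 1.997 and 1.893, with 3 of the 6 higher at an unadjusted p below 0.05. The median of the 6 was 0.64, beside 0.02 for all genes, and without Fat1-TAC1 it was 0.10, with mt-Co1 and mt-Co2 at -0.10 and -0.45.

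Between the TAC groups, all 6 genes had higher values in the fat-1 hearts. In Fat1-TAC both libraries exceeded both WT-TAC libraries for 6 of the 6 genes, as for 9.33% of all genes. By limma 0 of the 6 were called, against 1.43% of all genes in either direction and 0.0346% called higher, and 4 of the 6 (mt-Co2, mt-Co3, mt-Atp6 and mt-Atp8) were higher at an unadjusted p below 0.05, against 1.72% of all genes. That count was 2 without WT-TAC1, 1 without Fat1-TAC1, 0 without both and 1 after scaling to the cardiomyocyte markers. It rose to 6 with no trend in limma and to 5 when genes needed a mean of at least 5 FPKM. The share of all genes in these alternative fits was not computed. mt-Co2 had a log2 fold change of 1.94 (SE 0.58, limma adjusted p = 0.159), mt-Atp6 of 1.79 (SE 0.55, adjusted p = 0.161) and mt-Co3 of 1.75 (SE 0.54, adjusted p = 0.162). mt-Atp8 had 1.13 (SE 0.28) with the smallest limma adjusted p of the 6, 0.137. The most abundant genes differed least, by 0.73 (SE 0.46) for mt-Cytb and 0.70 (SE 0.59) for mt-Co1.

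The median of the 6 in this comparison was 1.44, against -0.40 for all genes, a difference of 1.84. It was 0.77 after scaling to the cardiomyocyte markers, 1.07 without WT-TAC1 and 0.86 without Fat1-TAC1, and 0.60 without both, with 0 genes called in each case. Without Fat1-TAC2, 2 of the 6 were called higher, against 0.0346% of all genes in that fit, and without WT-TAC2 all 6 were, in a fit that called 7837 of 14442 genes, 7.44% of all genes being called higher. In these fits a lone Fat1-TAC1 or WT-TAC1 is assumed to vary like the other groups. In Fat1-TAC1 the ratio of gene to copy was 5.58 for mt-Co3 and 3.07 for mt-Atp6, above every other library. The WT-TAC libraries enter this comparison and that with WT-Sham, and the Fat1-TAC libraries enter this one and that with Fat1-Sham, so the values are not independent of one another.

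Between the sham-operated groups, none of the 6 genes passed the test. mt-Co2 had a log2 fold change of 0.58 (SE 0.58, limma adjusted p = 1), with 2277 and 1512 FPKM in Fat1-Sham above 1296 and 1191 FPKM in WT-Sham. It was the only 1 of the 6 whose groups did not overlap, higher in Fat1-Sham, as for 15.5% of all genes. The other 5 genes lay between -0.10 (mt-Cytb, SE 0.46) and 0.03 (mt-Co3, SE 0.54). The values of all but mt-Co2 changed sign when single sham libraries were left out, and that of mt-Co3 also when scaled to the cardiomyocyte markers. By limma 0 of the 6 were called, against 0% of all genes, and 0 had an unadjusted p below 0.05 with the fold change, against 0.893% of all genes. The median of the 6 was -0.07, beside -0.01 for all genes.

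The interaction, TAC minus sham in fat-1 less the same in WT, asks whether the response to TAC differed by genotype. All 6 estimates were positive, and 0 of the 6 were called by limma, against 0.0692% of all genes. At an unadjusted p below 0.05 with the fold change, 2 of the 6 passed, mt-Atp6 and mt-Atp8, against 0.609% of all genes. The count was 0 without Fat1-TAC1, WT-Sham1 or Fat1-Sham2 and after scaling to the cardiomyocyte markers, 1 without WT-TAC1 or WT-Sham2, and 4 without Fat1-TAC2 or WT-TAC2. Without WT-TAC2, 4 were also called, against 6.12% of all genes called higher in that fit. mt-Atp6 had 1.88 (SE 0.78, limma adjusted p = 0.495), mt-Co3 1.71 (SE 0.77), mt-Co2 1.36 (SE 0.81) and mt-Atp8 1.20 (SE 0.39). For mt-Cytb the estimate was 0.83 (SE 0.65) and for mt-Co1 0.77 (SE 0.83). The median was 1.28, beside -0.37 for all genes, and was 0.62 without both TAC1 libraries, where mt-Co2 had -0.04. Of the 6, mt-Cytb alone had WT-TAC wholly below WT-Sham and Fat1-TAC wholly above Fat1-Sham, as had 1.26% of all genes, whereas 7.93% had the opposite pattern.

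**Figure D4:**
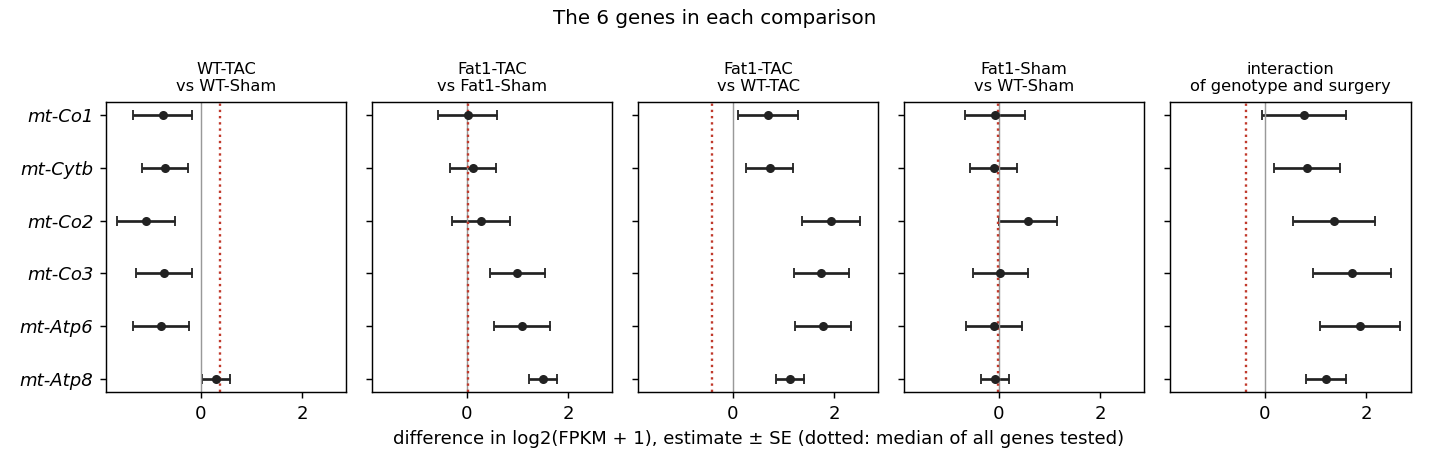
Difference in log2(FPKM + 1) for the 6 genes in each of the 5 comparisons, as the limma estimate with its SE, with a dotted line at the median of all genes tested. In WT-TAC vs WT-Sham 5 of 6 points lie below 0 and the dotted line at 0.39 above it, and in Fat1-TAC vs WT-TAC all 6 lie above 0.

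When the 3 genes with an identical copy were each summed with it, the WT-TAC values were larger in size and those between Fat1-TAC and Fat1-Sham smaller. In WT-TAC against WT-Sham, summed mt-Co2 had a log2 fold change of -1.30 (limma adjusted p = 0.180), mt-Co3 of -1.01 (adjusted p = 0.181) and mt-Atp6 of -1.07 (adjusted p = 0.185). In Fat1-TAC against Fat1-Sham the sums gave 0.09 for mt-Co2, 0.60 for mt-Co3 and 0.33 for mt-Atp6, and the median of the 6 genes was 0.23. In Fat1-TAC against WT-TAC the sums gave 1.73 for mt-Co2, 1.53 for mt-Co3 and 1.43 for mt-Atp6. No gene was called with the sums in any of the 5 comparisons.

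The 7 mitochondrial complex I genes, which lie on the same chromosome, had values of the same signs as mt-Co1 and mt-Cytb in both comparisons with WT-TAC. In WT-TAC against WT-Sham, 7 of 7 were negative with a median of -0.82, 0 were called by limma and 1, mt-Nd3, passed an unadjusted p below 0.05 with the fold change, against 1.11% of all genes lower by that rule, and 0 passed without WT-TAC1. Without WT-TAC2, 6 of 7 were called lower, against 6.31% of all genes. mt-Nd1 had -0.83 (SE 0.45) and mt-Nd2 -0.91 (SE 0.41). In Fat1-TAC against WT-TAC, 7 of 7 were positive with a median of 0.88, and 2 were called higher, against 0.0346% of all genes. Scaled to the cardiomyocyte markers, the medians were -0.26 (5 of 7 negative) and 0.20 (0 of 7 negative), with 1 called higher in the second comparison, and with quantiles both were 0. Without WT-TAC2, 7 of 7 were called higher in Fat1-TAC against WT-TAC, against 7.44% of all genes. mt-Nd3 had a log2 fold change of 3.06 (SE 0.46, limma adjusted p = 0.0554) and mt-Nd4l of 2.38 (SE 0.42, adjusted p = 0.0791), both named after their values were seen. The call of mt-Nd3 was lost without WT-TAC1 (adjusted p = 0.114) and without Fat1-TAC1 (0.369), as was that of mt-Nd4l (0.165 and 0.470). Over all 20 alternative settings mt-Nd3 was called in 10 (adjusted p 0.00190 to 0.383) and mt-Nd4l in 5 (0.00291 to 0.521), and leaving out either WT-Sham library ended both calls. The 2 mitochondrial rRNA genes, mt-Rnr1 and mt-Rnr2, were listed at 37.3 to 157 FPKM. Their median was -0.90 in WT-TAC against WT-Sham, -0.84 in Fat1-TAC against Fat1-Sham and 0.02 between the TAC groups, with 0 called in each.

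The nuclear genes for the same complexes were counted next, 9 for complex III, 14 for complex IV and 18 for complex V. In WT-TAC against WT-Sham, 38 of these 41 genes had negative values, while 2992 of all 14442 genes tested did. The medians were -0.50 for complex III, -0.63 for complex IV and -0.42 for complex V. These signs depended on the scaling. After scaling to the 10 cardiomyocyte markers the medians were 0.05, -0.07 and 0.13, with 3 of 9, 8 of 14 and 4 of 18 genes negative, whereas scaled by the median of ratios they were -0.93, -1.06 and -0.85. By limma 0 of the 41 were called. At an unadjusted p below 0.05 with the fold change, 2 complex III genes, 6 complex IV genes and 3 complex V genes were lower, against 1.11% of all genes in this fit. The share of all genes by this rule was not computed for the other settings. These counts were 0, 0 and 0 without WT-TAC1 and after scaling to the cardiomyocyte markers, and 7, 10 and 9 when scaled by the median of ratios. In Fat1-TAC against Fat1-Sham and in Fat1-Sham against WT-Sham, the medians of the 3 lists lay between -0.05 and 0.04.

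In complex III, Uqcrq, a small subunit that binds near cytochrome b, was the most abundant and had the most negative value. It was at 1174 and 1097 FPKM in sham and 558 and 909 in TAC hearts of WT mice, and 1061 and 1153 in sham and 1089 and 1095 in TAC hearts of fat-1 mice, with a log2 fold change of -0.67 (SE 0.25, limma adjusted p = 0.176) in WT-TAC against WT-Sham. Uqcrh, the hinge protein between cytochrome c1 and cytochrome c, had -0.46 (SE 0.19). Uqcrc1, a core protein, had the least negative value, -0.27 (SE 0.23). As for mt-Cytb, WT-TAC1 was the lowest library for Uqcrq and Uqcrh.

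In complex IV, both isoforms of subunit 6a were among the named genes and had values of opposite sign. Cox6a2, the isoform of heart and skeletal muscle, was at 2258 and 2158 FPKM in sham and 841 and 1658 in TAC hearts of WT mice, and 2134 and 2145 in sham and 2448 and 2498 in TAC hearts of fat-1 mice. Cox6a1, the isoform of most other tissues, was at 239 and 280.0 FPKM in sham and 358 and 414 in TAC hearts of WT mice, and 274 and 238 in sham and 193 and 208 in TAC hearts of fat-1 mice. In WT-TAC against WT-Sham, Cox6a2 had a log2 fold change of -0.90 (SE 0.32) and Cox6a1 of 0.57 (SE 0.16), each with a limma adjusted p of 0.175. Cox6a1 was lower in Fat1-TAC than in WT-TAC, with a log2 fold change of -0.94 (SE 0.16, limma adjusted p = 0.0784). It was the only nuclear gene of these lists that was called, against 1.39% of all genes called lower in this comparison. That call held without WT-TAC1 (adjusted p = 0.0448) and was lost without Fat1-TAC1 (0.470), Fat1-TAC2 (0.207) and each sham library (0.131 to 0.148), and it held in 6 of 20 alternative settings (0.00410 to 0.470). The WT-TAC libraries, highest in Cox6a1, were also those with the highest airway and epithelial markers, whose part in its level was not tested. Cox8b, the muscle isoform of subunit 8, had -0.72 (SE 0.31) in WT-TAC against WT-Sham.

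In complex V, Atp5b and Atp5a1, the catalytic beta and the alpha subunit, were the most abundant, at means of 5560.1 and 2760.1 FPKM over the 8 libraries. Their log2 fold changes in WT-TAC against WT-Sham were -0.35 (SE 0.30) and -0.42 (SE 0.27). Atp5g1, which encodes the c subunit of the rotating ring, was at 407 and 357 FPKM in WT-Sham and 160.1 and 271 in WT-TAC, the most negative value of the list at -0.87 (SE 0.25, limma adjusted p = 0.175). Atpif1, the inhibitor that stops the enzyme from hydrolysing ATP, had the one positive value of the list, 0.03 (SE 0.21). For Atp5b and Atp5a1, WT-TAC2 was within or next to the range of the sham libraries, and WT-TAC1 alone was low.

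Between the TAC groups, the nuclear lists had higher values in Fat1-TAC, for 8 of 9 complex III genes (median 0.53), 12 of 14 complex IV genes (0.58) and 18 of 18 complex V genes (0.46), beside -0.40 for all genes. Here too the signs turned after scaling to the cardiomyocyte markers, to medians of -0.14, -0.10 and -0.22, with 9 of 9, 9 of 14 and 15 of 18 genes negative. At an unadjusted p below 0.05 with the fold change, 1, 6 and 3 genes of these lists were higher, against 1.72% of all genes in this fit. No share of all genes by this rule was computed for the other settings, so their counts cannot be set against one. The counts were again 0, 0 and 0 without WT-TAC1 and scaled to the cardiomyocyte markers, 0, 1 and 0 without Fat1-TAC1, and 0, 0 and 2 without Fat1-TAC2, but 8, 10 and 11 by the median of ratios, 8, 11 and 8 when rescaled to fragments outside the mitochondrial genes, and 8, 12 and 14 without WT-TAC2. The size of these values depended on which WT-TAC library was kept. Without WT-TAC1, the medians in WT-TAC against WT-Sham were -0.21, -0.29 and -0.14 for complexes III, IV and V, and -0.45 for mitochondrial complex I. Without WT-TAC2, with WT-TAC1 standing alone for its group and assumed to vary like the others, 8, 11 and 13 nuclear genes of the 3 complexes were called lower, against 6.31% of all genes in that fit.

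Genes for the replication and expression of mitochondrial DNA varied in sign. Of 22 listed, 21 were tested, and 10 had negative values in WT-TAC against WT-Sham, with a median of 0.10 and 0 called by limma. Scaled by the median of ratios or by quantiles, 20 of 21 were negative (medians -0.32 and -0.43), and scaled to the cardiomyocyte markers 0 of 21 were (median 0.49). Fastk, a protein found at RNA granules, had -0.18 (SE 0.18) and Hsd17b10, a subunit of mitochondrial RNase P, -0.34 (SE 0.15). Polg, the catalytic subunit of the mitochondrial DNA polymerase, was at 29.5 and 29.5 FPKM in sham and 59.2 and 37.0 in TAC hearts of WT mice, and 34.2 and 33.5 in sham and 28.7 and 32.0 in TAC hearts of fat-1 mice, with a log2 fold change of 0.65 (SE 0.22, limma adjusted p = 0.175). Its highest library, WT-TAC1, was also that with the thymocyte markers, whose part was not tested. Of the assembly factors of complexes III to V, 12 of 15 tested had negative values with a median of -0.25, and 0 were called. Scaled to the cardiomyocyte markers, 0 of 15 were negative, with a median of 0.29. Among them Uqcc2 and Uqcc1, which act in cytochrome b synthesis, had -0.36 (SE 0.17) and -0.35 (SE 0.20), Atpaf1, a chaperone of the ATP synthase, -0.44 (SE 0.19), and Surf1, which acts early in complex IV assembly, 0.38 (SE 0.14).

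**Figure D5:**
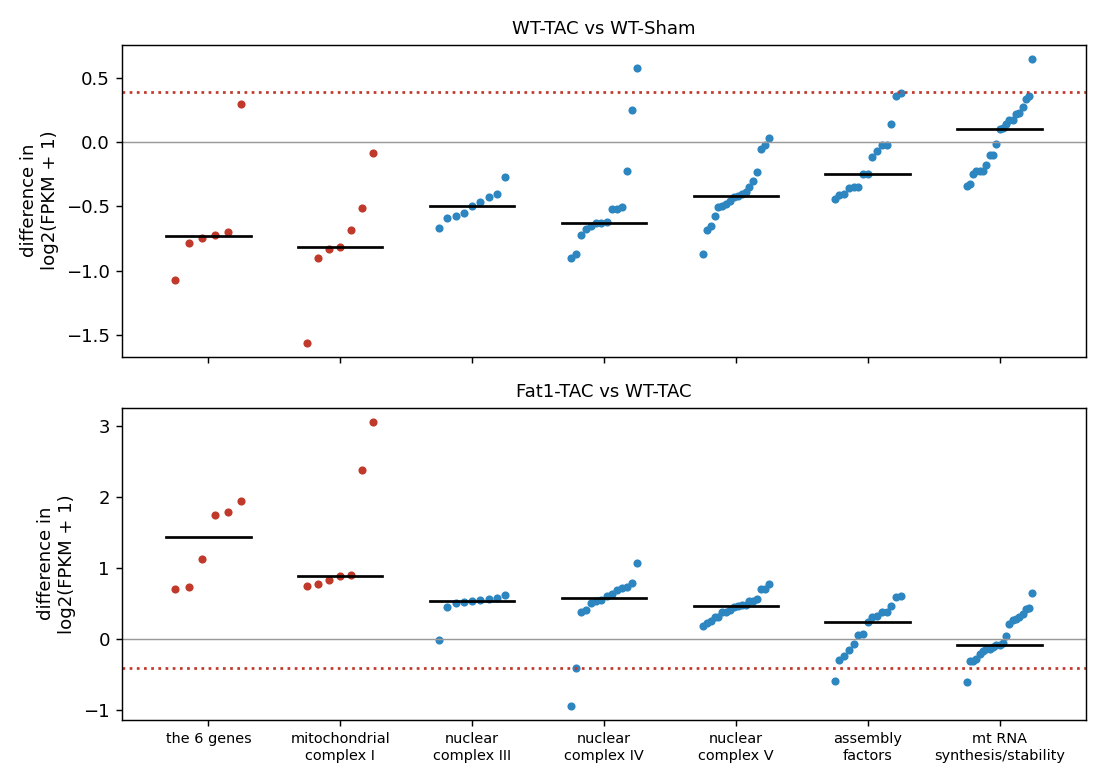
Difference in log2(FPKM + 1) for every tested gene of 7 lists, with mitochondrial genes in red, nuclear genes in blue, a black line at each list's median and a dotted line at the median of all genes, for WT-TAC vs WT-Sham (top) and Fat1-TAC vs WT-TAC (bottom). The 5 lists of respiratory chain subunits have medians below 0 at the top and above 0 at the bottom, opposite to the dotted lines at 0.39 and -0.40. Scaled to the cardiomyocyte markers, the medians of nuclear complexes III and V turn to 0.05 and 0.13 at the top, and those of all 3 nuclear complexes turn below 0 at the bottom.

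Outside the mitochondrial genome, 6881 genes with a mean of at least 10 FPKM were compared with the mean log2 level of the 6 genes. The most alike over the 8 libraries were Bcap29 (r = 0.935), Fam136a (0.925), Cdkl1 (0.918), Dram2 (0.911) and Sar1b (0.908), at means between 10.2 and 148 FPKM. These values describe 8 libraries, of which WT-TAC1 and Fat1-TAC1 lie at the ends of the range.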

How the data were processed

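RNA-sequencing of mouse hearts gave 8 libraries. Per the labels and the study's methods, the authors built paired-end libraries with an NEBNext Ultra kit, mapped clean reads and deposited FPKM values per gene, with no raw count used here. The submitters' processing notes name HISAT2, GRCm38 and mm10, without versions. The counting program, its use of strand and its treatment of multiply mapped reads are not given in the sources used here. Depth was read from the steps of FPKM × gene length, of which 96.1% to 96.8% were whole within 0.01 fragments. Groups came from the labels, and 0 columns of per-sample values were left unused.

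Differences were fitted with limma 3.58.1 (R 4.3.3, eBayes with trend) on log2(FPKM + 1) over all 14442 genes with at least 1 FPKM in at least 2 libraries, as 4 group means over 8 libraries, with Benjamini-Hochberg adjustment over all genes tested. Fold changes are on that scale, which understates those of low genes. In this fit each gene has 1 estimate of spread shared by the 4 groups. The SE and p of every comparison therefore include the wider spread between the WT-TAC libraries. Cutoffs were an adjusted p of 0.1 and 1.5-fold, after the study's methods. The fit was tested on simulated data with equal spread in every gene and group, which does not cover the wider spread of WT-TAC. Named genes were the 6 genes, mt-Nd1 and mt-Nd2, from each nuclear list the members called, the 2 most abundant and the most positive and most negative in WT-TAC vs WT-Sham, the 5 genes most alike, and Gm13339 and Gm28438. The members and lists were chosen with earlier results of these data known. Copies were sought in the GRCm38 transcripts. Of 17 listed assembly factors, 16 were found in the table. Alternatives covered scaling, filters, pseudocount, trend, a replicate block, single libraries and summed copies. Shares of all genes at an unadjusted p come from the main fit, and none was computed for the alternatives.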

Additional observations from a re-analysis of the deposited data

Results flagged for a closer look

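Of 39 genes examined (the 6 genes, the mitochondrial complex I genes, the named nuclear genes, nuclear copies and single tissue markers), there were 7 in which every TAC library differed from every sham library in one direction in WT hearts and in the other direction in fat-1 hearts. For mt-Cytb, both WT-TAC libraries lay below WT-Sham and both Fat1-TAC libraries above Fat1-Sham, and TAC minus sham in fat-1 less the same in WT was 0.83 on the log2 scale (SE 0.65, limma adjusted p of the interaction 0.519). The same pattern was seen for mt-Nd1 (1.02), mt-Nd5 (0.86), Uqcrh (0.60) and Cox6a2 (1.11), each with a limma adjusted p of 0.495. The opposite pattern, higher after TAC in WT and lower in fat-1, was seen for Cox6a1 (-0.92) and Polg (-0.80), also with a limma adjusted p of 0.495. Of all genes tested, 1.26% were lower after TAC in WT and higher in fat-1 without overlap, and 7.93% the reverse, beside 5 and 2 of the 39, several of which were named as extremes in WT-TAC vs WT-Sham. None of these 7 interactions passed the test, and mt-Nd5 was named after its values were seen.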

How the results depend on the processing

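Over the 20 alternatives per comparison (19 for the interaction, which could not be fitted with only the 2 groups compared), no gene of the 6 was called in 20 of 20 for Fat1-TAC vs Fat1-Sham and Fat1-Sham vs WT-Sham. Calls appeared in WT-TAC vs WT-Sham (0 to 3 when single libraries were left out), Fat1-TAC vs WT-TAC (0 to 6, with 2 without Fat1-TAC2) and the interaction (0 to 4), the highest counts without WT-TAC2. Of all genes, 6.31% were then called lower in the first, and 7.44% and 6.12% higher in the others, beside 0.0346% higher without Fat1-TAC2. A lone WT-TAC1 or Fat1-TAC1 is then assumed to vary like the other groups. The cause of the shifts was not tested. The 2 alternatives that sum copies and leave out both TAC1 libraries were chosen after seeing the data.

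Leaving out single libraries, the median of the 6 ran from -1.01 to -0.41 in WT-TAC vs WT-Sham, 0.10 to 1.28 in Fat1-TAC vs Fat1-Sham, 0.86 to 1.90 in Fat1-TAC vs WT-TAC, -0.24 to 0.20 in Fat1-Sham vs WT-Sham and 0.81 to 1.67 for the interaction. In WT-TAC vs WT-Sham it was -1.17 with median-of-ratios scaling and -0.18 when scaled to cardiomyocyte genes, a scaling that gave 0.77 in Fat1-TAC vs WT-TAC and 0.72 for the interaction. Without both TAC1 libraries it was 0.10 in Fat1-TAC vs Fat1-Sham, 0.60 in Fat1-TAC vs WT-TAC and 0.62 for the interaction.

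Signs turned for mt-Atp8 in WT-TAC vs WT-Sham (-0.11 with median of ratios, -0.17 with quantiles). In Fat1-TAC vs Fat1-Sham they turned for mt-Co1 (-0.0037 with median of ratios, -0.097 without Fat1-TAC1 or both TAC1 libraries) and mt-Co2 (-0.0063 without Fat1-Sham2, -0.45 without Fat1-TAC1 or both, within -0.45 to 1.03 over single libraries). In Fat1-Sham vs WT-Sham they turned for mt-Co3 (-0.076 scaled to cardiomyocyte genes, -0.077 summed with its copy, -0.068 without WT-Sham1, -0.36 to 0.43 over single libraries), mt-Atp6 (0.027 summed with its copy, 0.14 without WT-Sham1, -0.39 to 0.21 over single libraries), mt-Atp8 (0.19 without WT-Sham1 or Fat1-Sham2, down to -0.34), mt-Co1 (0.090) and mt-Cytb (0.044), both without WT-Sham1. The mt-Co2 interaction was -0.042 without both TAC1 libraries. Quantile normalization sets mt-Co1 and mt-Cytb, the top 2 ranks everywhere, to equal values in all libraries.

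Of all genes, 135 were called in WT-TAC vs WT-Sham and 206 in Fat1-TAC vs WT-TAC. The counts were 38 and 29 with median of ratios, 16 and 14 with quantiles, 9 and 15 at a mean of at least 5 FPKM, 33 and 33 with a pseudocount of 0.1, 293 and 350 with no filter, 86 and 104 when scaled to fragments outside the mitochondrial genes, 205 and 276 with no trend, and 98 and 41 with only the 2 groups compared. The median of all genes in WT-TAC vs WT-Sham was 0.03 with median of ratios and 0.88 scaled to cardiomyocyte genes.

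Replicate numbers did not pair the libraries, since deviations of same-numbered libraries correlated between -0.135 and 0.024. With the replicate block 0 of the 6 genes were called in each comparison, the median in WT-TAC vs WT-Sham stayed at -0.73, all calls were 52 and 52, and Cox6a1, mt-Nd3 and mt-Nd4l lost theirs (limma adjusted p = 0.152, 0.126 and 0.150). With 58 to 201 fragments, mt-Atp8 is the gene whose precision depth limits most.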
